A study of Mus musculus with 16 samples.

Results

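Cholesterol is built from acetyl-CoA through the mevalonate pathway, and 8 mouse genes of that pathway and its sterol feedback were followed in sorted lung endothelial cells: Hmgcs1, Idi1, Fdps, Fdft1, Sqle, Lss, Cyp51 and Insig1. They were chosen by symbol in the deposited expression table of 17715 entries. Of the 8 genes, 7 were found, and no entry carried the symbol Lss. A filter of at least 1 RPKM (reads per kilobase of transcript per megaread) in at least 4 of 16 libraries left 14303 entries and 6 of these genes for testing. Idi1 did not pass it, since it reached 1 RPKM in d22 replicates 1 and 4 only. None of the 8 genes takes up sterol, so uptake was covered by a separate gene list.

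Mammalian cells sense cholesterol in the membrane of the endoplasmic reticulum. When sterol is low, the escort protein Scap carries the transcription factor SREBP-2 (gene Srebf2) to the Golgi, where it is cleaved and released to the nucleus, and it then raises transcription of the synthesis enzymes and of genes of lipoprotein uptake. Insig proteins hold Scap back when sterol is plentiful, and Insig1 is itself a SREBP target. Endothelial cells both make sterol and take it up from lipoproteins.

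The cells were sorted from lungs of female C57BL/6N mice at 4 stages of a metastasis model that uses the Lewis lung carcinoma (LLC) line, a mouse lung tumour line, implanted under the skin. The d0 mice are labelled wild-type, the d15 mice bore the primary tumour, the d22 mice had had it resected, and the d36 mice bore metastases. There were 4 libraries per stage, described in the series design as biological replicates independent of each other. The titles number the d0 libraries 1, 2, 3 and 4, the d15 libraries 3, 4, 5 and 6, the d22 libraries 1, 4, 5 and 6, and those of d36 1, 7, 8 and 9. The sources used here do not give animal age, pooling of animals, or the antibodies and gate of the sort. One library, d36 replicate 1, has a title that names day 29 and a time point field that reads d36, and the field was followed.

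Libraries held approximately 93.4 to 152.1 megareads. Endothelial markers were high throughout, with a summed level of 12 genes from 4010 to 7039 RPKM. In the d36 libraries, markers of other cells were raised unevenly. Cycling-cell markers summed to 123, 80.8 and 88.6 RPKM in d36 replicates 1, 7 and 8, but to 9.75 RPKM in replicate 9 and to between 2.06 and 15.8 RPKM at the earlier stages. Carcinoma-cell markers summed to 313, 223 and 183 RPKM in the same 3 libraries, to 20.3 RPKM in replicate 9 and to at most 6.84 RPKM earlier. Results at d36 are therefore given with and without replicates 1 and 9. In bulk RNA, fewer cells of a type and less RNA per cell cannot be told apart.

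The upstream sequences of these genes are shown first, since the family is defined by shared transcriptional control. RefSeq's table for build GRCm38.p6 held 5 of the 8 (Hmgcs1, Idi1, Lss, Cyp51 and Insig1). Both strands of the 250 bases before each start were searched for TCACCCCA, a core of the sterol regulatory element, for the CCAAT box read by NF-Y, a partner of SREBP, and for the E-box CACGTG. No match of one motif overlapped a match of another in these windows. Distances are counted from RefSeq's starts, which lie 105 bases for Idi1 and 49 bases for Cyp51 and for Insig1 inside the GENCODE gene positions given with each gene, so the Idi1 and Cyp51 windows shown overlap those genes. In the sequences below capitals mark these motifs, and ATTGG is CCAAT on the other strand.
Hmgcs1 (chr13:119690101-119690350, plus strand, all 250 bases before the start): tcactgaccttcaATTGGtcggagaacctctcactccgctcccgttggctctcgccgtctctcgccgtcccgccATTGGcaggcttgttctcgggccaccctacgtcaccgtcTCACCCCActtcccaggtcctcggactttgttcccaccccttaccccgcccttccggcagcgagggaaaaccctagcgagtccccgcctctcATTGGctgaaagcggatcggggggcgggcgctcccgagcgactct
Insig1 (chr5:28071162-28071361, plus strand, 250 to 51 bases before the start): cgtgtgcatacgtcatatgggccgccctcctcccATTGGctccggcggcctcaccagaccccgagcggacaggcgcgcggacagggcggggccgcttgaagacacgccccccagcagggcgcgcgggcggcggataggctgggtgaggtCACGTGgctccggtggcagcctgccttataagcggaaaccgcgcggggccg
Idi1 (chr13:8885549-8885578, plus strand, 57 to 28 bases before the start): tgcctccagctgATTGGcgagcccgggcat
Idi1 (chr13:8885580-8885605, plus strand, 26 to 1 bases before the start): gtccaaggtgccATTGGctggcgacc
Cyp51 (chr5:4104709-4104738, minus strand, 41 to 12 bases before the start): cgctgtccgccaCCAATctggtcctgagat

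The CCAAT box was in 5 of the 5 windows, against 33.8% of all 32851 windows of that length. Hmgcs1 held 3 copies, 237, 176 and 45 bases before its start, and Idi1 held 2 copies, 45 and 14 bases before its start. Lss, Cyp51 and Insig1 held 1 copy each, 62, 29 and 216 bases before theirs. The core TCACCCCA was in Hmgcs1 alone among the 5, 137 bases before the start, and in 1.34% of all windows. CACGTG was in Insig1 alone among the 5, 101 bases before the start, and in 6.02% of all windows. A match of letters is a description and not a site.

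Hmgcs1 (chr13:119690379-119708260, plus strand) encodes the cytosolic HMG-CoA synthase of the mevalonate pathway. It stood at 9.52, 8.99, 9.27 and 10.7 RPKM in the d0 libraries and at 9.20, 8.06, 6.45 and 8.51 RPKM at d15. It then stood at 13.1, 10.9, 10.4 and 9.02 RPKM at d22 and at 14.9, 11.2, 12.5 and 9.22 RPKM at d36. The lowest d36 library was just above the highest d15 library, and every other pair of stages overlapped. Group means were 9.62 ± 0.764, 8.05 ± 1.17, 10.9 ± 1.69 and 12.0 ± 2.39 RPKM (SD, n = 4 each) in the order d0, d15, d22 and d36. Hmgcs1 rose from d15 to d36 by 0.51 ± 0.14 (SE) on the log2(RPKM + 1) scale, with a limma adjusted p of 0.0270.

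Idi1 (chr13:8885501-8892451, plus strand) encodes isopentenyl-diphosphate isomerase, which makes the starter unit for chain building. It was the lowest of the 7 genes, at 0.480, 0.389, 0.499 and 0.591 RPKM at d0 and 0.732, 0.601, 0.385 and 0.612 RPKM at d15. At d22 it stood at 1.01, 1.05, 0.856 and 0.716 RPKM, and at d36 at 0.906, 0.472, 0.826 and 0.630 RPKM. All 4 libraries at d22 were above all 4 at d0, and every other pair of stages overlapped. The mean was 0.490 ± 0.0825 RPKM at d0 and 0.907 ± 0.152 RPKM at d22 (SD, n = 4), a ratio of 1.85. Because Idi1 failed the filter, an exact two-sided permutation test was added after seeing the data. Its p for d22 against d0 was 0.0286, the smallest that 4 against 4 libraries allow, and 0.171 after Benjamini-Hochberg adjustment over 6 comparisons. In the limma fit of all 17715 entries with no filter, Idi1 rose at d22 by 0.35 ± 0.09 (SE), adjusted p 0.0228.

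Fdps (chr3:89093588-89101959, minus strand) encodes farnesyl-diphosphate synthase, the last step shared by sterols and the prenyl groups that anchor proteins to membranes. It was the highest of the 7 genes and stood at 25.1, 23.4, 30.0 and 29.2 RPKM at d0. At d15 it stood at 16.7, 20.7, 11.2 and 17.6 RPKM, at d22 at 22.5, 24.8, 22.2 and 14.5 RPKM, and at d36 at 21.8, 19.9, 20.9 and 20.4 RPKM. All d15 libraries and all d36 libraries were below all d0 libraries, and at d22 replicate 4 alone reached the d0 range. Means were 26.9 ± 3.19, 16.6 ± 3.95, 21.0 ± 4.49 and 20.7 ± 0.791 RPKM (SD, n = 4 each). The difference of d15 from d0 was -0.69 ± 0.17 (SE) on the log2(RPKM + 1) scale and missed the threshold of 0.05 (limma adjusted p 0.0552). Its highest mean was at d0, as for Fdft1 and for no other of the 7 genes.

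Fdft1 (chr14:63145150-63179578, minus strand) encodes squalene synthase, the first enzyme committed to sterols. Its 16 values ran from 7.76 to 11.4 RPKM, with means of 10.3 ± 1.12, 9.11 ± 1.58, 9.74 ± 1.04 and 10.3 ± 1.30 RPKM (SD, n = 4 each). All pairs of stages overlapped. The 95% interval of d36 minus d0 was -0.27 to 0.26 on the log2(RPKM + 1) scale.

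Sqle (chr15:59315077-59331192, plus strand) encodes squalene epoxidase, the first oxygen-requiring and a rate-limiting step of the sterol branch. It stood at 0.796, 0.674, 0.989 and 0.834 RPKM at d0 and at 0.559, 0.862, 0.559 and 0.650 RPKM at d15. At d22 it stood at 1.35, 1.11, 1.32 and 0.946 RPKM, and at d36 at 3.47, 1.61, 2.16 and 0.492 RPKM. The d22 libraries lay above all d15 libraries, and d36 held both the 3 highest values and the lowest value of all 16. The mean at d36 was 1.93 ± 1.24 RPKM (SD, n = 4) and at d22 1.18 ± 0.190 RPKM, so the spread at d36 was the wider one. No d0 or d15 library reached 1 RPKM, so Sqle entered the test through d22 and d36 alone. Sqle rose from d15 to d36 by 0.72 ± 0.22 (SE), adjusted p 0.0425.

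Cyp51 (chr5:4081145-4104746, minus strand) encodes lanosterol demethylase, which acts after the cyclase made by Lss. It stood at 0.874, 1.09, 1.02 and 0.910 RPKM at d0 and at 0.657, 0.594, 0.783 and 0.929 RPKM at d15. At d22 it stood at 2.11, 1.46, 1.15 and 1.25 RPKM, and at d36 at 1.77, 1.61, 1.44 and 0.978 RPKM. All d22 libraries were above all d0 and all d15 libraries, and all d36 libraries were above all d15 libraries. Means were 0.973 ± 0.0992, 0.740 ± 0.148, 1.49 ± 0.434 and 1.45 ± 0.342 RPKM (SD, n = 4 each). At least 1 RPKM was reached in 2 d0, 0 d15, 4 d22 and 3 d36 libraries, so Cyp51, too, passed the filter through d22 and d36, where it is high. Cyp51 rose from d15 to d22 by 0.51 ± 0.13 (SE), adjusted p 0.0430, and from d15 to d36 by 0.49 ± 0.13, adjusted p 0.0222.

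Insig1 (chr5:28071363-28078662, plus strand) encodes the retention protein of the sterol sensor and is the only one of the 8 genes that is no enzyme. It stood at 2.51, 2.51, 2.87 and 1.46 RPKM at d0 and at 2.73, 1.81, 2.88 and 3.90 RPKM at d15. At d22 it stood at 3.80, 4.03, 3.11 and 4.50 RPKM, and at d36 at 3.96, 5.56, 4.06 and 2.96 RPKM. All d22 and all d36 libraries were above all d0 libraries, and d15 overlapped with every stage. Means were 2.34 ± 0.610, 2.83 ± 0.857, 3.86 ± 0.578 and 4.14 ± 1.07 RPKM (SD, n = 4 each). Insig1 rose from d0 to d36 by 0.62 ± 0.18 (SE), adjusted p 0.0223, a ratio of means of 1.77. Its rise at d22, 0.55 ± 0.18, had an adjusted p of 0.0511 and did not pass.

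**Figure D1:**
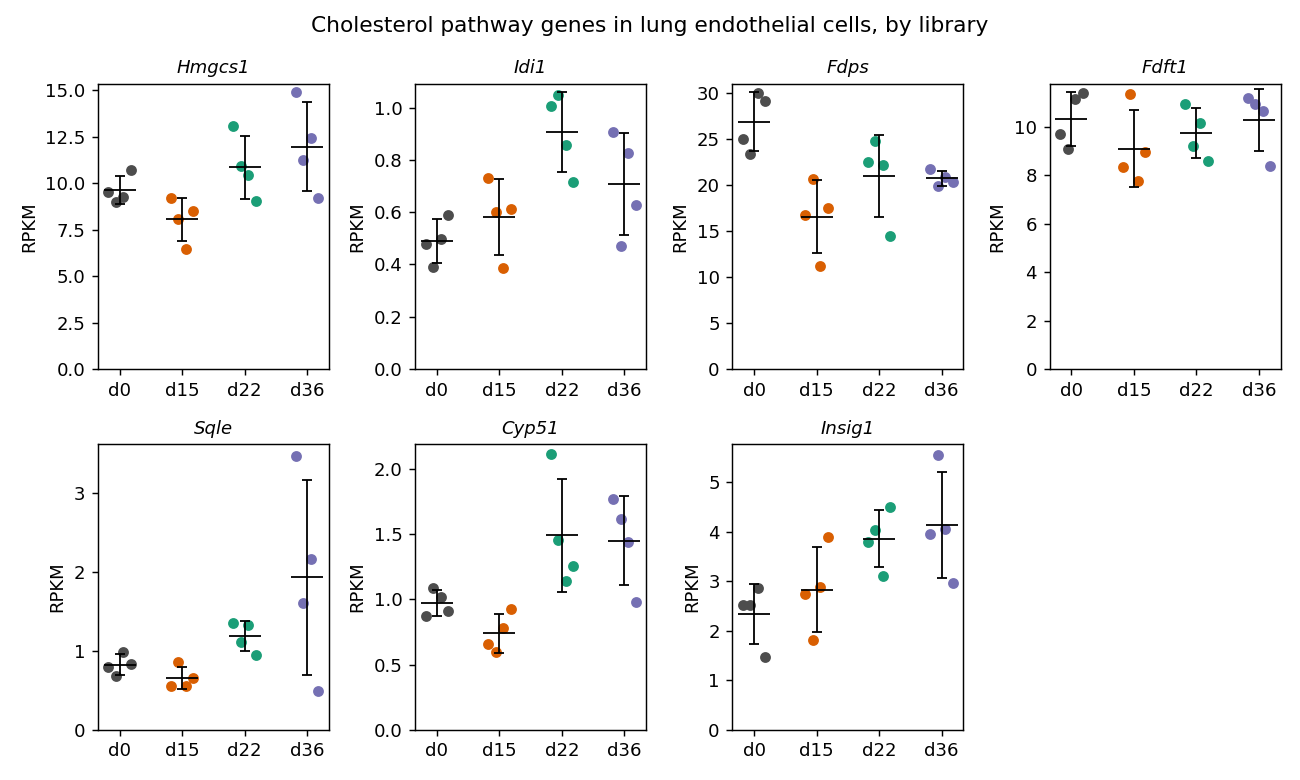
RPKM of the 7 genes found in each library (points), with the group mean and SD (bars), n = 4 per stage. Fdps sits highest at d0. Cyp51 sits higher at d22 and d36 than at d0 or d15, with d36 replicate 9, at 0.978 RPKM, within the d0 range. Insig1 sits higher at d22 and d36 than at d0, and its d15 values overlap with every stage. The 4 Sqle values at d36 spread from 0.492 to 3.47 RPKM.

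By level per length, Fdps led in each of the 4 group means, Hmgcs1 and Fdft1 followed at 8.05 to 12.0 RPKM, and Insig1 stood at 2.34 to 4.14 RPKM. Cyp51, Sqle and Idi1 were at or below 1.93 RPKM in each group mean. The order of the stages differed between genes. The d15 mean was the lowest for 5 of the 7 genes, against 21.88% of tested entries, and d0 was the lowest for Idi1 and Insig1, against 30.55%. The d36 mean was the highest for Hmgcs1, Sqle and Insig1, d22 for Idi1 and Cyp51, and d0 for Fdps and Fdft1. Of tested entries, 36.29% had their highest mean at d36, 25.15% at d22 and 26.18% at d0. In 7 of 7 genes d22 and d36, the stages after resection, were neighbours that overlapped with each other, and 13.6% of tested entries did not overlap between them.

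With the primary tumour in place (d15 against d0), 0 of the 6 tested genes passed, where 1.18% of all tested entries did. At an unadjusted limma p under 0.05 the count was 1, Fdps, where 16.5% of entries were under it. Its libraries lay below those of d0 without overlap, as did 6.94% of entries, and the ratio of means was 0.615. Without d15 replicate 4, the highest of that group, the Fdps difference was -0.80, adjusted p 0.0484, and it passed. With any other d0 or d15 library left out Fdps did not pass, with limma adjusted p from 0.0793 to 0.175. The other 5 differences ran from -0.24 for Hmgcs1 to 0.19 for Insig1, and their 95% intervals all included 0.

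After resection (d22 against d0), 0 of the 6 tested genes passed at an adjusted p under 0.05 by limma, where 15.2% of entries did, and 3 had an unadjusted p under 0.05, where 29.8% of entries did. Insig1 was higher by 0.55 ± 0.18 (SE), with a 95% interval of 0.17 to 0.94. Cyp51 was higher by 0.32 ± 0.13, with an interval of 0.05 to 0.60 and an adjusted p of 0.101. Both lay above d0 without overlap, as did 14.2% of entries. Of these genes, Cyp51 had passed the filter through d22 and d36, as had Sqle. The Fdps difference was -0.36 ± 0.17, with an adjusted p of 0.159.

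With metastases (d36 against d0), 1 of the 6 tested genes rose and 0 fell, where 16.6% of entries rose, 7.37% fell and 24% passed in either direction. The gene was Insig1, whose d36 libraries all lay above d0, as did 13.9% of entries. Its call was lost without d0 replicate 4, the lowest Insig1 library of all (0.48, adjusted p 0.0832), and without d36 replicate 7, the highest (0.49, adjusted p 0.0733). It was also lost with the length and GC trend removed (0.46, adjusted p 0.0770), with d0 and d36 alone in the fit (0.62, adjusted p 0.0559) and with the replicate number as a block (0.55, adjusted p 0.251). Sqle was higher by 0.58 ± 0.22 (SE), adjusted p 0.0637, Cyp51 by 0.30 ± 0.13, adjusted p 0.0982, and Hmgcs1 by 0.27 ± 0.14, adjusted p 0.172. Fdps was again below d0 without overlap, as were 7.47% of entries, at -0.35 ± 0.17 and an adjusted p of 0.136. The 3 comparisons with d0 share the d0 libraries, so their values for a gene are not independent.

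Without d36 replicate 9, 4 of the 6 genes rose from d0 to d36, where 21.8% of entries rose. Sqle rose by 0.87 (adjusted p 0.000288), Insig1 by 0.73 (0.00569), Cyp51 by 0.40 (0.0186) and Hmgcs1 by 0.38 (0.0380), all from limma. Without both replicates 1 and 9, an alternative chosen after seeing the data, 2 of the 6 rose, where 18.6% of entries did. They were Sqle, by 0.66 (adjusted p 0.00151), and Insig1, by 0.81 (adjusted p 0.00974). Without replicate 1 alone, 1 of the 6 rose, Insig1, where 12.9% of entries did. These counts are descriptions, since Sqle and Cyp51 entered the test through d22 and d36. The filter was not redone for the fits with libraries left out.

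From d15 to d22, 1 of the 6 tested genes rose, Cyp51, where 2% of entries rose and 3.06% passed in either direction. That count is a description, since Cyp51 and Sqle entered the test through d22 and d36. Cyp51 and Sqle lay above d15 without overlap, as did 10.2% of entries, and the ratios of means were 2.02 and 1.80. Sqle was higher by 0.40 ± 0.22 (SE), adjusted p 0.325, and Hmgcs1 by 0.39 ± 0.14, adjusted p 0.126. The Cyp51 call was close to the threshold. It was lost without any of 7 of the 8 compared libraries, d15 replicates 3, 4, 5 and 6 and d22 replicates 1, 4 and 6, with adjusted p up to 0.128, and without d22 replicate 5 it held at 0.0496. The value ran from 0.39 to 0.57 over these fits, so the direction held.

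From d15 to d36, 3 of the 6 tested genes rose, Hmgcs1, Sqle and Cyp51, where 9.87% of entries rose and 11.5% passed. Sqle and Cyp51 entered the test through d22 and d36, so the count is a description. Hmgcs1 and Cyp51 lay above d15 without overlap, as did 8.94% of entries. The ratios of means were 1.49, 2.94 and 1.96 in that order. Without d36 replicate 9 the same 3 rose, by 0.62, 1.01 and 0.59, and Insig1 rose as well, by 0.54 (adjusted p 0.0446), where 16.1% of entries rose.

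Several libraries decided these calls. Without d36 replicate 1, 0 of the 6 passed, with adjusted p of 0.0955 for Hmgcs1, 0.137 for Sqle and 0.0790 for Cyp51, where 5.58% of entries rose. Hmgcs1 was also lost without d15 replicate 4 (0.0531), d15 replicate 5 (0.0836) or d36 replicate 8 (0.0719). Cyp51 was lost without d15 replicate 4 (0.0620), d36 replicate 7 (0.0557) or d36 replicate 8 (0.0539). Sqle passed in the fit without d36 replicate 9 and in none of the other 7, where its value ran from 0.48 to 0.78. With both replicates 1 and 9 left out, 3 of the 6 rose again, where 12.1% of entries did.

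Between d22 and d36, 0 of the 6 tested genes passed by limma, where 11.8% of entries did, and 0 had an unadjusted p under 0.05, where 28.3% of entries did. The differences ran from -0.02 for Cyp51 to 0.32 for Sqle. Intervals were -0.29 to 0.25 for Cyp51, -0.32 to 0.45 for Insig1 and -0.35 to 0.36 for Fdps. Without d36 replicate 9, Sqle was higher at d36 than at d22 by 0.61 (adjusted p 0.00613), 1 of the 6, where 16% of entries rose. This, too, is a description, since Sqle entered the test through d22 and d36.

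A moderated F test asked whether d15, d22 or d36 differed from d0. It passed for 4 of the 6 tested genes, where 28.7% of entries passed: Cyp51 (adjusted p 0.0159), Fdps (0.0316), Insig1 (0.0404) and Hmgcs1 (0.0458). Sqle had 0.0660 and Fdft1 0.594. The count is a description, since Cyp51 and Sqle entered the test through d22 and d36.

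**Figure D2:**
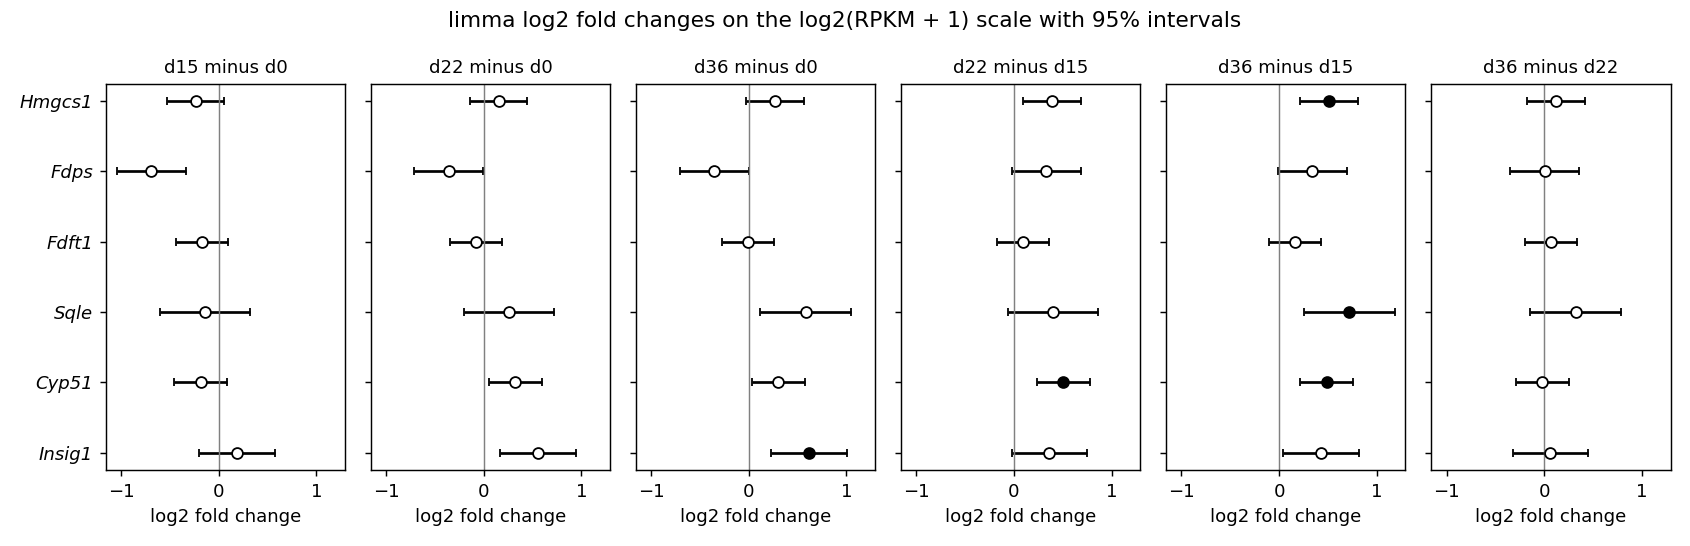
limma log2 fold changes on the log2(RPKM + 1) scale with 95% intervals for the 6 tested genes in the 6 comparisons. Filled points passed an adjusted p of 0.05 over all entries: Insig1 in d36 minus d0, Cyp51 in d22 minus d15, and Hmgcs1, Sqle and Cyp51 in d36 minus d15.

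Scaling bears on the d36 values. Making the library medians equal lowered the d36 minus d0 differences by 0.14 and the d36 minus d15 differences by 0.15 at the median entry. The share of calls that were rises moved from 69.3% to 38.1% against d0, and from 85.8% to 44.9% against d15. On that scale Insig1 was higher than d0 by 0.48 (adjusted p 0.0544), and Hmgcs1, Sqle and Cyp51 were higher than d15 by 0.36, 0.57 and 0.34 (adjusted p 0.101, 0.0947 and 0.0855). Fdps then fell from d0 to d36 (-0.49, adjusted p 0.0442). These 4 rises thus kept their direction and lost their calls. From d15 to d22 the same step moved the median entry by -0.06, the share of rises from 65.4% to 40.8%, and Cyp51 to 0.45 (adjusted p 0.0626). The share of rises also moved from 53.2% to 39.7% for d22 against d0 and from 74% to 49.8% for d36 against d22, where 0 of the 6 genes passed in the unscaled fit.

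Most pairs of these genes had a positive r over all libraries and also within stages, and the pairs negative within stages all held Insig1. Each gene's log2(RPKM + 1) was standardised over the 16 libraries and averaged over the 7 genes. This mean lay between -0.501 and 0.0925 in the d0 libraries and between -1.42 and -0.427 in those of d15. After resection it lay between -0.204 and 1.02 at d22 and between -0.499 and 1.31 at d36. The lowest library was d15 replicate 5, where 0 of 7 genes were above their own mean. The highest was d36 replicate 1, the library whose title names day 29, where 7 of 7 were above it, as they were in d22 replicate 1 and d36 replicate 8.

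d36 replicate 9 stood apart from the other 3 d36 libraries, and 0 of its 7 genes were above their own mean. It held 0.492 RPKM of Sqle against 1.61 to 3.47 RPKM in the others, and 0.978 RPKM of Cyp51 against 1.44 to 1.77 RPKM. Insig1 stood at 2.96 against 3.96 to 5.56 RPKM, Hmgcs1 at 9.22 against 11.2 to 14.9 RPKM and Fdft1 at 8.38 against 10.7 to 11.2 RPKM. Fdps, at 20.4 RPKM, and Idi1, at 0.630 RPKM, lay within the range of the other 3. This is the library with the low cycling and carcinoma marker sums at d36.

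Marker sums of other cell types also varied between the d36 libraries, and not all in the order of these genes. Leukocyte markers summed to 66.0, 113, 188 and 58.9 RPKM in d36 replicates 1, 7, 8 and 9, so replicate 9 was the lowest here too. In replicate 9 the fibroblast and mural sum was the lowest of d36, at 3.98 RPKM, and the lung epithelial sum the highest, at 1170 RPKM. Of the tested markers, 5 of 6 in the cycling-cell list, 1 of 3 in the carcinoma list, 5 of 7 in the macrophage and leukocyte list and 2 of 4 in the fibroblast and mural list passed the filter only through the d36 libraries, so these lists are given by their sums. Leukocyte markers summed to 25.7 to 46.9 RPKM at d0, 48.4 to 134 RPKM at d15, 17.3 to 62.4 RPKM at d22 and 58.9 to 188 RPKM at d36. Fibroblast and mural markers summed to 4.31 to 5.20 RPKM at d0 and 3.98 to 36.9 RPKM at d36. Of the endothelial list 3 of 12 fell and 1 rose from d0 to d36, and of the lung epithelial list 2 of 12 rose and 1 fell, where 16.6% of entries rose and 7.37% fell. The 2 epithelial genes that rose, Krt8 and Krt18, are also in the carcinoma list. Their means were 0.755 and 1.50 RPKM at d0 and 33.5 and 53.3 RPKM at d36. Lung epithelial markers summed to 825 to 2011 RPKM at d0, 1308 to 3456 RPKM at d15 and 491 to 1170 RPKM at d36. Some defining markers were listed at 0: Prl2c2 of the carcinoma list in 10 libraries, Hmga2 in 5, and the macrophage genes Emr1 and Itgam in 7 and 6.

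At d22 Cyp51, Insig1 and Idi1 lay above d0 without overlap, as did 14.2% of tested entries. Cycling markers summed to 2.65 to 15.8 RPKM at d22 with the highest sum in replicate 1, which also held the highest Cyp51 and Hmgcs1 of that group. Carcinoma markers summed to 4.05 to 6.84 RPKM at d22 and 4.32 to 6.20 RPKM at d15. Leukocyte markers were lowest in d22 replicate 1, at 17.3 RPKM. The part of these markers in the results was not tested.

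**Figure D3:**
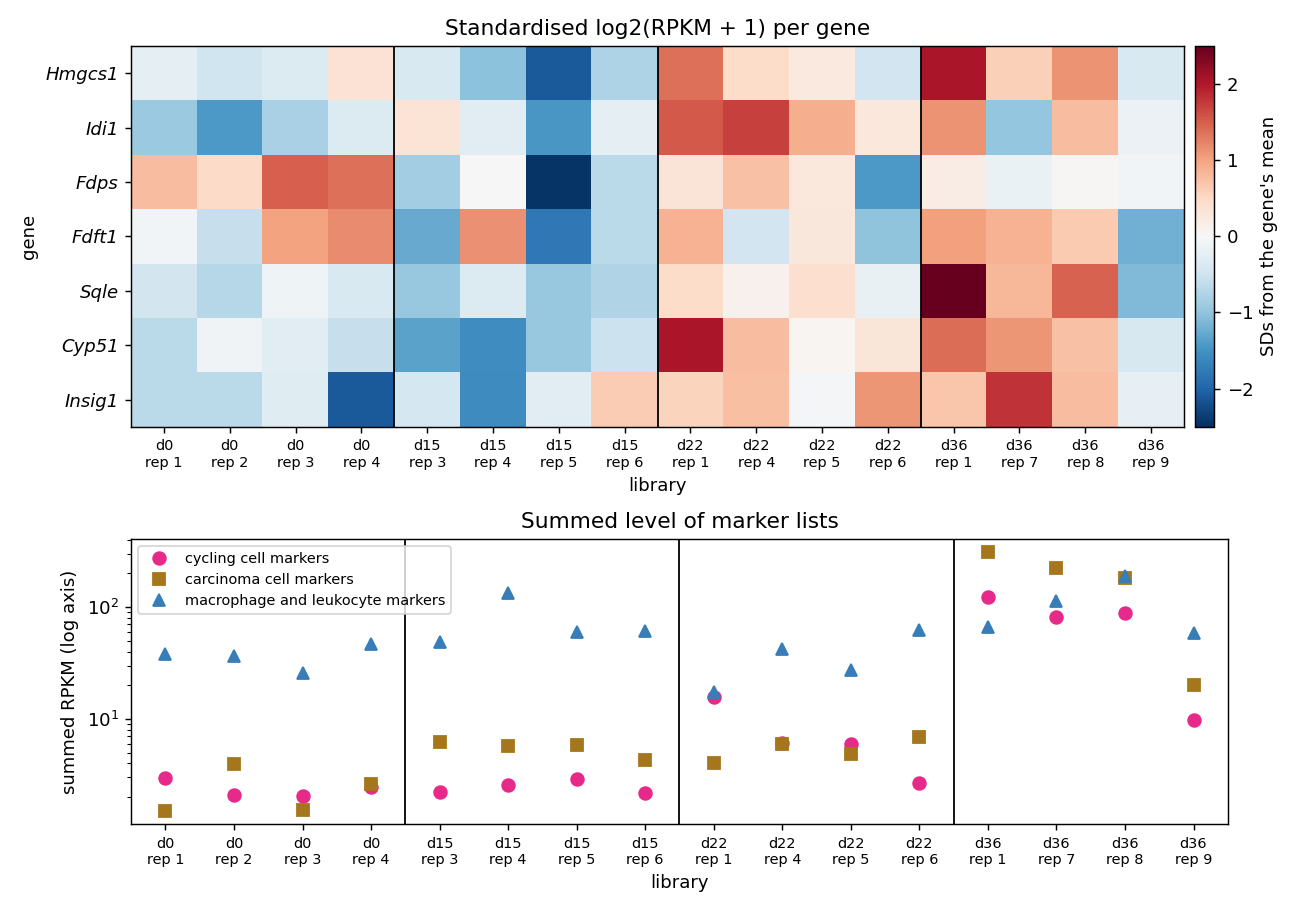
Upper panel: log2(RPKM + 1) of the 7 genes found, standardised per gene over the 16 libraries (colour, SDs from the gene's mean), one column per library. Lower panel: summed RPKM of the cycling, carcinoma and macrophage and leukocyte marker lists in the same libraries (log axis). The d36 replicate 9 column is pale to blue in 7 of 7 rows, and its cycling and carcinoma sums, 9.75 and 20.3 RPKM, are the lowest of the d36 libraries.

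Pairs of these genes were compared over the 16 libraries, which share stage, depth and cell composition. Of 21 pairs 19 had a positive Pearson r, with a median of 0.496, and 17 stayed positive with each stage's mean taken off. The pairs negative within stages were Insig1 with Hmgcs1, Idi1, Fdft1 and Fdps (r -0.0345, -0.301, -0.207 and -0.322). Within stages Insig1 stood at 0.512 with Cyp51 and 0.123 with Sqle, and Fdps with Cyp51 stood at 0.0738. The share of positive pairs among all entries was not computed. Over the 16 libraries the highest r was that of Hmgcs1 with Sqle (r 0.832, Spearman rho 0.779), followed by Hmgcs1 with Cyp51 (r 0.806, rho 0.765). Fdps with Fdft1 stood at 0.687. The lowest was Fdps with Insig1 (r -0.302, rho -0.376).

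Among 10811 ranked entries that are none of the 8 genes, Erlin1, a lipid-raft protein of the endoplasmic reticulum, was among the 10 most like their mean, with r 0.900 over 16 libraries and 0.803 with stage means taken off, against a median entry of 0.104. So were Rybp, Slc20a1, Cdca7, Dusp11, Srsf7, Krr1, Mphosph10 and Iqgap3, with r from 0.847 to 0.890. Iqgap3 and Cdca7 are genes of dividing cells, and Iqgap3 was nearly off at d0, at 0.0499 ± 0.0299 RPKM, and at 1.77 ± 1.14 RPKM at d36 (SD, n = 4). These are descriptions of 16 libraries that share the same stages and cells.

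The other genes of the pathway were read from fixed lists. Of the sterol synthesis enzymes outside the 8 genes, 12 of 15 were tested. At d15 0 of 12 passed, with a median of -0.18 beside -0.18 for the 6 tested genes and -0.02 for all entries. At d22 1 of 12 fell and 0 rose, where 7.1% of entries fell, and at d36 1 fell and 1 rose, where 7.37% of entries fell and 16.6% rose. Mevalonate kinase, Mvk, fell at d22 (-0.45 ± 0.14 SE, adjusted p 0.0380) and at d36 (-0.54 ± 0.14, adjusted p 0.0106), from 12.4 ± 1.50 to 8.26 ± 1.54 RPKM (SD, n = 4). Sc5d, a late desaturase, rose at d36 (0.32 ± 0.10, adjusted p 0.0247). The median of the 12 at d36 was -0.06, against 0.29 for the 6 tested genes and 0.04 for all entries.

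Of the genes that control SREBP 10 of 10 were tested, 0 passed at d15 or d22, and 1 rose at d36, where 16.6% of all entries rose. It was Mbtps2, the protease that makes the second cut in SREBP (0.49 ± 0.12 SE, adjusted p 0.00655). Erlin1 rose from d15 to d36 (0.54 ± 0.13, adjusted p 0.0163). Srebf2 stood at 7.01 ± 0.705, 6.33 ± 1.61, 8.40 ± 1.14 and 6.57 ± 0.388 RPKM over the 4 stages and Srebf1, the lipogenic SREBP gene, at 4.31 ± 0.532, 6.23 ± 1.26, 5.84 ± 1.09 and 6.04 ± 2.47 RPKM (SD, n = 4 each). Neither passed in any comparison. Insig2, the paralogue of Insig1, stood at 9.55 ± 1.00 RPKM at d0 and 11.0 ± 0.872 RPKM at d36, a difference of 0.19 ± 0.11 (SE) with an adjusted p of 0.253. The activity of SREBP, which depends on cleavage of the protein, was not measured.

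Of the sterol uptake and transport genes 10 of 14 were tested, and 0 passed at d15 or d22. At d36 1 fell, where 7.37% of entries did. It was Stard3, a late-endosomal sterol carrier (-0.49 ± 0.11 SE, adjusted p 0.00529). Scarb1, the HDL receptor, fell from d15 to d22 (-0.82 ± 0.21, adjusted p 0.0442), from 271 ± 54.4 to 152 ± 10.6 RPKM (SD, n = 4). Of the efflux, ester and LXR genes 9 of 10 were tested, 0 passed at d15 or d22, and 2 rose at d36, where 16.6% of entries rose. They were Soat1, which esterifies cholesterol (1.54 ± 0.29, adjusted p 0.00150), and Abca1, which exports it (0.93 ± 0.20, adjusted p 0.00347). Both are also abundant in macrophages, whose markers summed higher at d36, and that share was not tested.

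Of the fatty acid synthesis targets of SREBP 9 of 14 were tested. At d15 0 passed, 1 rose at d22 and 5 rose at d36, where 16.6% of entries rose, with a median of 0.50. Of the 9, 4 did not pass the filter with d0 and d15 alone, among them Scd1, Fasn and Me1. The count of rises is therefore a description. Me1, malic enzyme, passed the filter only through d36, and it is named here after its values were seen. Scd1 rose by 1.07 ± 0.30 (SE) and Fasn, fatty acid synthase, by 0.99 ± 0.29, with adjusted p of 0.0165 and 0.0201. Fasn stood at 0.763 RPKM in d36 replicate 9 against 2.17 to 5.29 RPKM in the other 3. Elovl5, an elongase, rose at d22 (0.54 ± 0.11, adjusted p 0.00567) and at d36 (0.50 ± 0.11, adjusted p 0.00518).

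Of the non-sterol isoprenoid genes, which use the products of Idi1 and Fdps, 9 of 10 were tested. At d15 0 passed, at d22 2 rose, where 8.09% of entries rose, and at d36 4 rose, where 16.6% of entries did. Ggps1, which makes geranylgeranyl diphosphate, rose at d22 (0.30 ± 0.09 SE, adjusted p 0.0396) and d36 (0.29 ± 0.09, adjusted p 0.0308). Pggt1b, a subunit of the enzyme that attaches it to proteins, stood at 6.62 ± 0.657 RPKM at d0, 10.4 ± 0.345 RPKM at d22 and 10.2 ± 1.27 RPKM at d36 (SD, n = 4 each). It rose by 0.59 ± 0.10 and 0.55 ± 0.10 (SE), with adjusted p of 0.00212 and 0.00152. Pdss1 and Pdss2, which build the tail of ubiquinone, rose at d36 by 0.85 ± 0.17 and 0.42 ± 0.11, with adjusted p of 0.00189 and 0.0109.

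**Figure D4:**
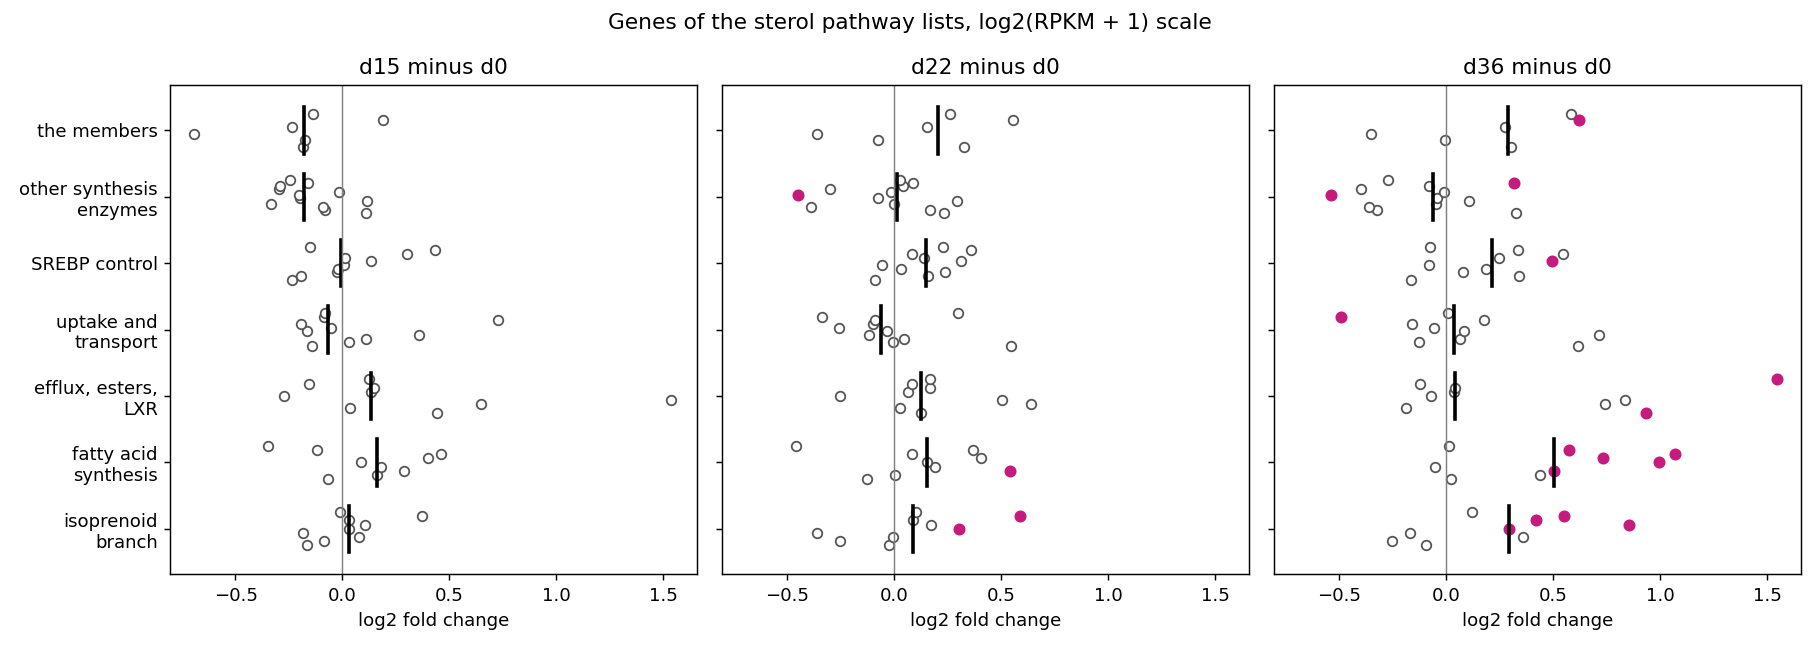
limma log2 fold changes against d0 of the 6 tested genes (labelled the members) and of 6 lists of related genes, at d15, d22 and d36 (points, one per gene), with each list's median (black bar). Filled points passed an adjusted p of 0.05. No point passed at d15, 4 did at d22 and 16 did at d36, of which 5 are fatty acid synthesis genes. Of the 9 tested genes of that list, 4 did not pass the filter with d0 and d15 alone.

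The authors' deposited table holds log2 fold changes for d15, d22 and d36, with no comparison group named in its headers. In that table Idi1 had 0.88 at d22 (adjusted p 0.00226), Insig1 0.73 at d22 (0.00146) and 0.80 at d36 (0.0117), and Cyp51 0.62 at d22 (0.0243). In the authors' deposited table Fdps had -0.64 at d15 (adjusted p 0.00423) and -0.38 at d36 (0.0170), and Sqle 1.14 at d36 (0.0494). Hmgcs1 and Fdft1 had no adjusted p under 0.05 in the authors' deposited table. The sources used here do not say whether a pseudocount was used for those values, so they and the limma differences above are not on a known common scale.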

How the data were processed

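RNA of sorted lung endothelial cells was sequenced in 16 mouse libraries, 4 per stage. The values used are RPKM, one per entry and library, as deposited. Log2 fold changes and adjusted p-values of the authors stand beside them, per the file headers, and were copied without a refit. The submitters' processing notes name STAR, DESeq2 and mm10 with neither versions nor roles. The sources used here do not state the annotation, the transcript lengths used or any filtering. RNA, per the labels' protocols, came from a PicoPure kit and libraries from 10 ng of total RNA with a SMARTer Ultra Low kit.

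RPKM values were tested as log2(RPKM + 1) with limma 3.58.1 in R 4.3.3, using an intensity trend, all 4 groups in one fit, two-sided tests and Benjamini-Hochberg adjustment over the 14303 entries that reached 1 RPKM in 4 or more of 16 libraries. A log2 fold change on this scale understates the change of low genes. The threshold was an adjusted p of 0.05. The fit was tested on simulated data. The pathway lists are synthesis enzymes, SREBP control, uptake and transport, efflux with esters and LXR, fatty acid synthesis and isoprenoid genes, and the marker lists are endothelial, epithelial, leukocyte, fibroblast and mural, carcinoma and cycling genes. The 8 genes and all lists were chosen with earlier results of these data known. From each pathway list, genes that passed in any comparison could be named, up to 5 by the smallest F p, and Srebf1, Srebf2 and Insig2 were named in any case. Likeness to the mean of the standardised genes was ranked by Pearson r, and entries among the first 10 were named. A few results on single genes of these lists are not reported here.

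Depth was estimated from the steps in low RPKM values. With the estimated relative depths, 324 of 4296 low entries gave whole reads throughout (tolerance 0.1 read, up to 40 reads), against 0 with permuted depths, and 52 genes with a single transcript set the absolute scale. A gene's reads follow approximately, with 126 to 417 per library for Idi1, 233 to 2360 for Sqle and 4170 to 9990 for Fdps. Counting error was not compared with the spread between libraries. Gene positions come from the GENCODE annotation of GRCm38 and promoters from RefSeq. Alternatives covered the pseudocount, the filter, scaling, a length and GC trend (9610 of 14303 entries had both values), the trend, the groups in the fit, group weights, a replicate block and each library left out.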

Additional observations from a re-analysis of the deposited data

How the results depend on the processing

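Of 672 refits of 36 gene differences, 570 kept direction and side of the threshold, 50 lost a call, 25 gained one and 27, none of them passing, turned sign in 7 differences. The number called among all entries tested, 14303 in the main fit, moved with the settings. For d15 against d0 it was 169, 24 without d0 replicate 3 and 524 with group weights. For d22 against d0 it was 2173, 3619 with group weights and 841 of 9610 with the length and GC trend removed. For d36 against d0 it was 3430, 1134 with the replicate block and 5013 without d36 replicate 9. The number of the 8 genes called also depended on settings, and these counts are descriptions. For d15 against d0 it was 0, and 1 (Fdps) with a mean of at least 2 RPKM, quantile normalization, the length and GC trend removed, the compared groups alone, group weights or without d36 replicates 1 and 9. For d22 against d0 it was 0, 1 with a pseudocount of 0.1, no filter, a mean of 2 RPKM, the compared groups alone or without d36 replicates 1 and 9, and 2 with group weights. For d36 against d0 it was 1, 0 with quantile normalization or the compared groups alone, and 2 without d36 replicates 1 and 9. That 1 was Insig1, but with equal medians or the length and GC trend removed it was a fall of Fdps (adjusted p 0.0442 and 0.0477), and with the replicate block it was Sqle (1.25, adjusted p 0.00657). For d22 against d15 it was 1, 0 with a mean of 2 RPKM, equal medians, quantile normalization or the length and GC trend removed, and 2 without d36 replicates 1 and 9. For d36 against d15 it was 3, 2 with a pseudocount of 0.1 (Sqle lost, adjusted p 0.0525), 1 with a mean of 2 RPKM or group weights, and 0 with equal medians, quantile normalization, the length and GC trend removed or the compared groups alone. For d36 against d22 it was 0, and 1 without d36 replicates 1 and 9. The F test passed 4, and 2 with equal medians, quantile normalization or the length and GC trend removed. Leaving out each library gave 0 to 1 at d15 against d0, 0 to 4 at d36 against d0, 0 to 1 at d22 against d15, 0 to 4 at d36 against d15, 0 to 1 at d36 against d22 and 1 to 5 for the F test. The mean filter of 2 RPKM left 4 of the genes in the test. In the other cases the cause was not tested. Every called difference of the 6 tested genes kept its direction in each refit.

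With the replicate number as a block, 4 residual degrees of freedom remained. The counts were then 0 for d22 against d15, 1 for d36 against d15, 1 for d36 against d22 and 1 for the F test. Over all entries the block gave 735 calls for d22 against d15, beside 437 in the main fit. Over 9 same-numbered pairs the deviations from stage means had r from -0.111 to 0.216, with a median of 0.0445 and 2 over 0.1. Over 87 differently numbered pairs r ran from -0.358 to 0.354, with a median of -0.0226 and 26 over 0.1. So few same-numbered pairs cannot settle whether the numbers pair the libraries. Under the block Fdft1 at d36 against d0 was 0.0663, Cyp51 at d36 against d22 was 0.00255 and Insig1 was -0.00377.

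The other sign changes were near 0. With the length and GC trend removed, Hmgcs1 at d36 against d0 was -0.0285. At d36 against d22 the same step gave -0.0331 for Hmgcs1, -0.143 for Fdps, -0.0338 for Fdft1 and -0.120 for Insig1. Equal medians gave -0.0779 for Fdps, -0.0145 for Fdft1 and -0.0205 for Insig1, and quantile normalization -0.0200 for Hmgcs1, -0.138 for Fdps, -0.0692 for Fdft1 and -0.0207 for Insig1. Without d36 replicates 1 and 9 the values were 0.0639 for Fdft1 at d36 against d0, and -0.0146 for Fdps and 0.0347 for Cyp51 at d36 against d22. Leaving out each library gave -0.0619 to 0.0791 for Fdft1 at d36 against d0, and -0.152 to 0.0930 for Fdps, -0.0879 to 0.0914 for Cyp51 and -0.0608 to 0.182 for Insig1 at d36 against d22.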
